A study of Mus musculus with 48 samples.

Results

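The genes described here mark the granules and the IgE receptor of eosinophils, basophils and mast cells. The set was chosen by name as 9 symbols, with no measured value in the rule. The tables write them in capitals, as EPX, PRG2, EAR1, EAR2 and EAR7 for eosinophil granules and CPA3, MS4A2, FCER1A and MCPT8 for basophils and mast cells, and they are given below in the usual mouse spelling. All 9 had a row among the 21637 genes of the stimulation table, 8 of 9 among the 11278 genes of the perturbation table (no row for Fcer1a), and 6 of 9 among the 13963 genes of the sorted-population table (no rows for Cpa3, Ms4a2 and Fcer1a).

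Polyadenylated RNA of mouse cells was sequenced from its 3′ ends. The cultures were grown from femur and tibia marrow of C57BL/6J females aged 6 to 10 weeks, with GM-CSF to give cells labelled moDC (monocyte-derived dendritic cells) or with Flt3L to give cells labelled pDC (plasmacytoid dendritic cells). In the stimulation experiment each culture type was left untreated or was given a ligand of Toll-like receptors: LPS at 100 ng/ml, PAM3CSK at 100 ng/ml (PAM below), CpG A at 5 uM or CpG B at 5 uM, for 1, 2, 4 or 6 h (no 2 h library for CpG A). The labels name no sort of the cultured cells. The conditions made 16 moDC and 16 pDC libraries, 1 for each condition. The perturbation experiment is used here as 6 libraries of infected cultures, with moDC sh-Cebpb (a hairpin against Cebpb) beside moDC sh-control, pDC sh-Irf8 beside pDC sh-control, and pDC OE-Cebpb (overexpression) beside pDC OE-control, which carried GFP. The sorted set is used here as 9 untreated populations isolated by antibody staining from marrow or spleen, named in the labels MP, MDP, CDP, preDC, Ly6c+ monocyte, Ly6c- monocyte, pDC, DN DC and CD8+ DC, with strain labels that run from C57BL/7 upwards. No condition, vector or population had a second library, and the labels name neither animals nor separate cultures, so p-values measure only the spread between these libraries, which may be technical.

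Eosinophils are granulocytes whose granules hold a peroxidase (Epx), the strongly basic major basic protein (Prg2) and, in the mouse, a large family of eosinophil-associated ribonucleases (the Ear genes). Basophils and mast cells bind IgE through a receptor with an alpha chain (Fcer1a), a beta chain (Ms4a2) and a shared gamma chain (Fcer1g), and store proteases such as carboxypeptidase A3 (Cpa3) and, in mouse basophils, Mcpt8. All 3 lineages arise in bone marrow, where factors of the GATA and C/EBP families act in their progenitors and where GM-CSF is one of the growth factors that eosinophil precursors can use.

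The promoters of Epx, Ear1 and Ear2 are shown because the pair of ribonuclease genes is hard to tell apart by sequence, while Epx is a single gene of another family. RefSeq's table (GRCm38.p6) held a promoter for 7 of the 9 genes, 300 bases each, and none for Prg2 and Ear7. Capitals mark each match to GATAA, a core motif of GATA factors, or to TTGCNNAA, a core motif of C/EBP factors, searched on both strands, so that TTATC is GATAA on the other strand. The motifs share no overlapping match in these windows.
Ear1, chr14:43819590-43819889, minus strand: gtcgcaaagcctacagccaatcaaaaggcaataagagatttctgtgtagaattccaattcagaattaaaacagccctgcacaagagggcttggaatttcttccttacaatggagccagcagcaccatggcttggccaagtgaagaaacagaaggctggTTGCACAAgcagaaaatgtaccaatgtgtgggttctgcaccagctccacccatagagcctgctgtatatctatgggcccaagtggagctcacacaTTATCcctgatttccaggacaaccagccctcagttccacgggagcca
Ear2, chr14:44102404-44102703, plus strand: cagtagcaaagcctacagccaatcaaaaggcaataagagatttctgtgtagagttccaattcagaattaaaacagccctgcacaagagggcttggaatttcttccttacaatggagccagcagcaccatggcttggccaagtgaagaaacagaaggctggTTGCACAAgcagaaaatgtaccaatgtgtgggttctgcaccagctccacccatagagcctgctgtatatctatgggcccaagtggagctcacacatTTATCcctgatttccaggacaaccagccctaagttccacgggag
Epx, chr11:87875487-87875786, minus strand: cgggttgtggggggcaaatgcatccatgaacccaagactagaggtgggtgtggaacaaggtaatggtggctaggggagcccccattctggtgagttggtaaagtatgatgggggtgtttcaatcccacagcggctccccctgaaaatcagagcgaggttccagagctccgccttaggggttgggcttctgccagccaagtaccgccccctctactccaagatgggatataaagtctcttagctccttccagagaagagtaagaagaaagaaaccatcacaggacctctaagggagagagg

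The Ear1 and Ear2 windows were 97.0% identical, and each held 1 match to TTGCNNAA, at positions -92 and -90 from the annotated start, and 1 to GATAA just past the start. The Epx window held neither motif. GATAA was present in 5 of the 7 windows (Cpa3, Ear1, Ear2, Fcer1a and Ms4a2), against 25.4% of 32851 RefSeq promoters of the same length. TTGCNNAA was present in 3 of the 7 (Ear1, Ear2 and Fcer1a), against 10.8% of all. A match is a string of letters and no binding site is implied. The last 300 bases of the Ear1 and Ear2 transcripts, where a 3′ end library reads, were 98.7% identical in the GENCODE M21 transcripts, and Ear1 and Ear10 were 91.4% identical there, while Ear1 and Ear6 were 63.4% identical. Counts of Ear genes are therefore uncertain as to the single gene, and in the sorted table Ear6 and Ear7 held equal values within 0.001, both at 0 in 6 of the 9 populations and at the same fractional value in the other 3.

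Library totals were 255062 to 748152 counts in the stimulation table (median 397712), so 1 count was worth 1.34 to 3.92 CPM (the count scaled by its library's total). With a floor of 3 counts, a gene at 0 could be as high as 4.01 to 11.8 CPM, depending on the library. The perturbation libraries were much shallower, at 39739 to 262946 counts, and a count of 0 there allows up to 11.4 to 75.5 CPM. The sorted libraries held 874141 to 5149290 counts. The labels of the stimulation cultures were checked on Siglech, a surface receptor of pDC, which had 16 counts over all moDC libraries and 1823 over all pDC libraries. All intervals below are 95% exact intervals and cover counting error only.

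The eosinophil granule genes separated the cultures in every library, with moDC far above pDC, whereas the basophil and mast cell genes were low in both cultures and their ranges overlapped. Epx, the peroxidase, ran from 330 to 789 CPM in moDC libraries (median 504) and from 2.12 to 10.9 CPM in pDC libraries (median 4.68). Prg2, the major basic protein, ran from 815 to 1676 CPM in moDC (median 1228) and from 3.70 to 19.6 CPM in pDC (median 15.0). The cultures did not overlap for either gene, and every moDC library stood above every pDC library. How many of all genes separate the cultures this fully was not counted, so the separation is not read as particular to these genes. Of the 8056 genes tested, 11.9% were called higher in moDC. The log2 fold change of moDC over pDC was 6.79 ± 0.15 (SE) for Epx and 6.77 ± 0.16 for Prg2, from edgeR's quasi-likelihood test with the 16 conditions as blocks (Benjamini-Hochberg adjusted p = 1.19e-23 and 5.80e-23). In a bulk culture fewer cells of a type and less RNA per cell cannot be told apart.

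The ribonucleases followed. Ear1 ran from 77.2 to 159 CPM in moDC (median 108) and from 0 to 3.92 CPM in pDC (median 2.01), with 6 pDC libraries at 0. Ear2 ran from 147 to 427 CPM in moDC (median 285) and from 2.46 to 21.5 CPM in pDC (median 10.9). Ear7 ran from 52.1 to 182 CPM in moDC (median 149) and from 0 to 9.74 CPM in pDC, where 12 libraries were at 0. None of the 3 overlapped between cultures, and each was higher in moDC in 16 of 16 conditions. Again the share of all genes that did so was not counted. Their log2 fold changes were 6.14 ± 0.21 for Ear1 (edgeR adjusted p = 9.93e-20), 4.93 ± 0.18 for Ear2 (adjusted p = 4.11e-19) and 6.76 ± 0.30 for Ear7 (adjusted p = 4.75e-17). Because pDC held 10 counts of Ear1 and 7 of Ear7 over all 16 libraries, the size of these folds rests on few reads.

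Among the basophil and mast cell genes only Cpa3 and Mcpt8 passed the filter on low counts, both through moDC libraries alone. Their p-values below are therefore not free of a choice that favours moDC, though both were also called in a fit without the filter. Cpa3, the stored carboxypeptidase, ran from 5.71 to 27.6 CPM in moDC (median 18.1) and from 0 to 12.3 CPM in pDC (median 3.49), and was higher in moDC in 16 of 16 conditions although the ranges overlapped. Its log2 fold change was 2.25 ± 0.26 (edgeR adjusted p = 2.03e-08), from 125 counts in moDC and 26 in pDC. It reached the level that the filter asks for in just 4 libraries, all of them moDC. Without the LPS 6 h, PAM 2 h, CpG B 1 h or CpG B 4 h condition, or with early or late libraries alone, it missed the filter and had no test. Mcpt8, the basophil protease, ran from 12.6 to 45.0 CPM in moDC (median 20.8) and from 2.34 to 16.5 CPM in pDC (median 12.9), again with overlap, and was higher in moDC in 13 of 16 conditions. Its log2 fold change of 1.06 ± 0.21 (adjusted p = 8.56e-05) lay just over the 2-fold threshold, and the call ended with column totals as the scaling (0.81) or without the LPS 4 h, PAM 4 h or CpG B 4 h libraries (0.97 each).

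The receptor chains were at the limit of detection. Ms4a2, the beta chain, had 29 counts over all moDC libraries and 16 over all pDC libraries, a ratio of CPM of 1.54 with an interval of 0.810 to 3.04. Fcer1a, the alpha chain that binds IgE, had 14 counts in moDC and 17 in pDC, a ratio of 0.700 with an interval of 0.320 to 1.51. Both intervals hold 1. In a fit without the filter the log2 fold change was 0.83 ± 0.45 for Ms4a2 (edgeR adjusted p = 0.103) and -0.28 ± 0.46 for Fcer1a (adjusted p = 0.603), so a difference was not detectable at this depth. The gamma chain Fcer1g, which many myeloid cells share with other Fc receptors, averaged 1078 ± 121 CPM in moDC and 702 ± 156 CPM in pDC (SD, n = 16 each), a log2 fold change of 0.89 ± 0.10 that stayed under 2-fold. Fcer1g was named after its values were seen.

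**Figure D1:**
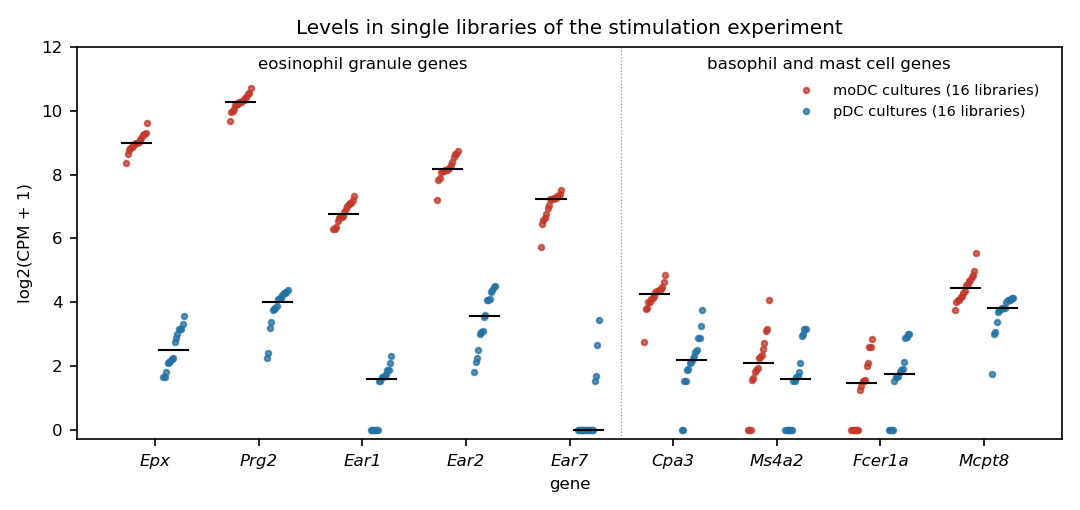
Levels of the 9 genes in each library of the stimulation experiment as log2(CPM + 1), with 16 moDC libraries (red) left of 16 pDC libraries (blue) for each gene and a bar at the median. The 5 eosinophil genes do not overlap between the cultures, while Cpa3, Ms4a2, Fcer1a and Mcpt8 do. The share of all genes without overlap was not counted.

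In all, 7 of the 9 genes passed the filter on low counts and all 7 were called higher in moDC, where 11.9% of the 8056 genes tested were called higher and 9.93% lower. The filter asked for 20 CPM in at least 4 libraries, and the genes passed it through moDC. Epx, Prg2, Ear1 and Ear7 reached that level in 16 moDC libraries and 0 pDC libraries. Ear2 reached it in 16 moDC and 2 pDC libraries, Mcpt8 in 8 moDC and 0 pDC libraries, and Cpa3 in 4 moDC and 0 pDC libraries. A gene that passes in this way was chosen partly for a high value in moDC, so the count of 7 adds nothing to the single values.

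Other genes of these lineages were read from lists. Many genes of this and the later lists also passed the filter through 1 culture alone, such as Ear6, with means of 159 CPM in moDC and 3.03 CPM in pDC. Their counts of calls carry the same limit, and stand beside 11.9% of all tested genes called higher and 9.93% called lower. Of 20 other eosinophil genes, 10 passed the filter, 9 were called higher in moDC and 0 lower. The highest folds were those of Ear6 (5.87 on the log2 scale), Ear3 (4.90) and Serpinb2 (4.65), a serpin that macrophages also make. Ear3 counts were 0.884 to 0.986 of the Ear2 counts in each moDC library, so reads of that pair may be shared. Ear6 may share reads with Ear7, as the pair held equal values in all 9 sorted populations. Calls of Ear3 and Ear6 may thus repeat those of Ear2 and Ear7. Prg3, a homolog of the major basic protein, averaged 28.9 ± 9.86 CPM in moDC and 2.49 ± 2.48 CPM in pDC (SD, n = 16 each). Receptors of the list differed among themselves. Il5ra, the IL-5 receptor, had 17 counts over all moDC libraries and 20 over all pDC libraries, and Ccr3, the eotaxin receptor, had 49 in moDC and 25 in pDC. Siglec5, another surface receptor of the list, had 147 counts in moDC and 36 in pDC and was called higher (log2 fold change 1.99). Prg3 and these receptors were named after their values were seen.

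Of 14 other basophil genes, 7 were tested, 4 were called higher and 0 lower. The leading ones were Cyp11a1 (3.97), which starts steroid synthesis, Fcgr2b (2.69), the inhibitory IgG receptor, and Csf1 (2.35), a macrophage growth factor, and none of these is restricted to basophils. Of 19 other mast cell genes, 5 were tested, 3 were called higher and 2 lower. The growth factor receptor Kit (-2.59) and the prostaglandin D synthase Hpgds (-3.16) fell in moDC, and Il1rl1 (2.52), the IL-33 receptor, rose. Mast cell granule proteases were close to 0 in both cultures, with 1 count of Cma1 in moDC and 12 in pDC, 7 of Tpsb2 in moDC and 11 in pDC, and 3 of Mcpt4 in moDC and 10 in pDC, all named after their values were seen.

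Of 14 genes listed for IgE receptor signalling and the lipid mediators that follow it, 10 were tested, 3 were called higher and 0 lower. They were the leukotriene enzymes Alox5 (4.14) and Ltc4s (2.71) and the adaptor Lcp2 (1.41), all of which other myeloid cells use. Of 19 lineage factors and growth factor receptors, 14 were tested, 6 were called higher and 4 lower. Cebpe, which granulocytes need for their later maturation, averaged 64.3 ± 11.0 CPM in moDC and 3.68 ± 3.62 CPM in pDC (SD, n = 16 each; log2 fold change 4.36). Cebpb (3.27) rose and Kit (-2.59) fell. Gata2, a factor of basophil and mast cell progenitors that was named after its values were seen, had 100 counts in moDC and 26 in pDC, and the filter left it untested.

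Many genes of other lineages moved in the same direction, with most neutrophil granule genes among them. Of 15 listed, 14 were tested, 13 were called higher in moDC and 0 lower, with Chi3l3 (6.16), Mmp8 (5.13) and Ltf (4.49) leading. The remaining tested gene, the elastase gene Elane, went the other way but stayed under 2-fold (-0.71). It averaged 442 CPM in moDC and 852 CPM in pDC, and was named after its values were seen. The summed level of the list was 9120 to 16426 CPM in moDC libraries and 1128 to 1905 CPM in pDC libraries, and its part in the values of the eosinophil genes was not tested. Of 11 monocyte and macrophage genes, 10 were tested, 7 were called higher and 1 lower, with Chi3l3 again, Mrc1 (83.6 CPM on average in moDC and 12.7 CPM in pDC) and Ly6c2 (2.74 on the log2 scale) leading, and the list summed to 2756 to 3876 CPM in moDC and 595 to 2183 CPM in pDC. Of 9 erythroid and megakaryocyte genes, 4 were tested and all 4 were called higher. They were led by the platelet chemokines Ppbp (4.82) and Pf4 (4.00), the second at 1138 ± 245 CPM in moDC and 85.6 ± 28.5 CPM in pDC (SD, n = 16 each), and by Car2 (2.99), while the erythroid gene Car1 had 0 counts in moDC and 16 in pDC. That list summed to 933 to 2055 CPM in moDC and 73.6 to 214 CPM in pDC. The part of these lists was not tested either. Listed pDC genes had 0 of 7 tested called higher and 6 lower, led by Ly6d (-7.11), Siglech (-6.73) and Ccr9 (-5.29). Conventional dendritic cell genes had 1 of 8 called higher and 6 lower.

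Among the 16 moDC libraries Epx and Prg2 ran high and low in the same libraries, and other pairs of the 9 genes varied together less closely. The 5 eosinophil genes summed to 1445 to 3161 CPM in moDC (median 2275), with the lowest library at PAM 6 h and the highest at PAM 4 h, and to 12.9 to 51.0 CPM in pDC (median 30.3). The coefficient of variation over moDC libraries was 20.5% for Epx and 17.3% for Prg2, against 6.71% and 4.35% from counting alone. For Cpa3 it was 28.2%, against 36.8% from counting alone, so its variation was no larger than counting gives. Pearson's r of log2(CPM + 10) over the 16 libraries was 0.91 for Epx with Prg2, 0.81 for Prg2 with Ear7, 0.03 for Ear1 with Ear2 and -0.26 for Epx with Cpa3. These are descriptions: the points share the depth and the total of a library.

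A search took the 3173 genes with a mean of at least 50 CPM in moDC and left out the members among them. The gene most like both Epx and Prg2 was Ngp, a neutrophil granule protein, with r of 0.95 to Epx and 0.94 to Prg2. Ngp ran from 397 CPM at PAM 6 h to 985 CPM at PAM 4 h, the same 2 libraries that held the extremes of Epx and Prg2. Without them r was 0.88 to Epx and 0.87 to Prg2 over 14 libraries. After Ngp came Camp (0.80), Prtn3 (0.79), Chi3l1 (0.76) and Pglyrp1 (0.74) for Epx, all of them also made by neutrophils, and without the 2 libraries Chi3l1 was at 0.41. For Prg2 the next were Ear6 (0.84), BC100530 (0.82), S100a8 (0.79) and S100a9 (0.77), of which S100a9 was at 0.49 without the 2 libraries. Ear6 may share reads with the member Ear7. For Cpa3 the highest were Gng5 (0.71), Pop4 (0.69), Tmem219 (0.61), Prss34 (0.61) and Stat3 (0.59), and as Cpa3 had only a few counts per library these are no finding.

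The ligands were compared next, to see whether stimulation moved these genes. Untreated moDC had 500 CPM of Epx and 1063 CPM of Prg2. With LPS, Prg2 was 1229, 1226, 1480 and 1368 CPM at 1, 2, 4 and 6 h, and with PAM it was 1276, 996, 1676 and 815 CPM. With CpG A it was 1363, 1008 and 1197 CPM at 1, 4 and 6 h, and with CpG B it was 1290, 1502, 1162 and 1172 CPM at 1, 2, 4 and 6 h. For Prg2 all LPS and CpG B libraries lay above the untreated library, while PAM and CpG A each had libraries on both sides of it, and PAM held both the highest and the lowest. Epx was at 570, 506, 632 and 615 CPM with LPS and at 502, 453, 789 and 330 CPM with PAM at the same times. It was at 547, 398 and 439 CPM with CpG A at 1, 4 and 6 h and at 463, 602, 477 and 521 CPM with CpG B. For Epx the LPS libraries alone all lay above the untreated library, CpG B had libraries on both sides of it, and both extremes were again in PAM.

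**Figure D2:**
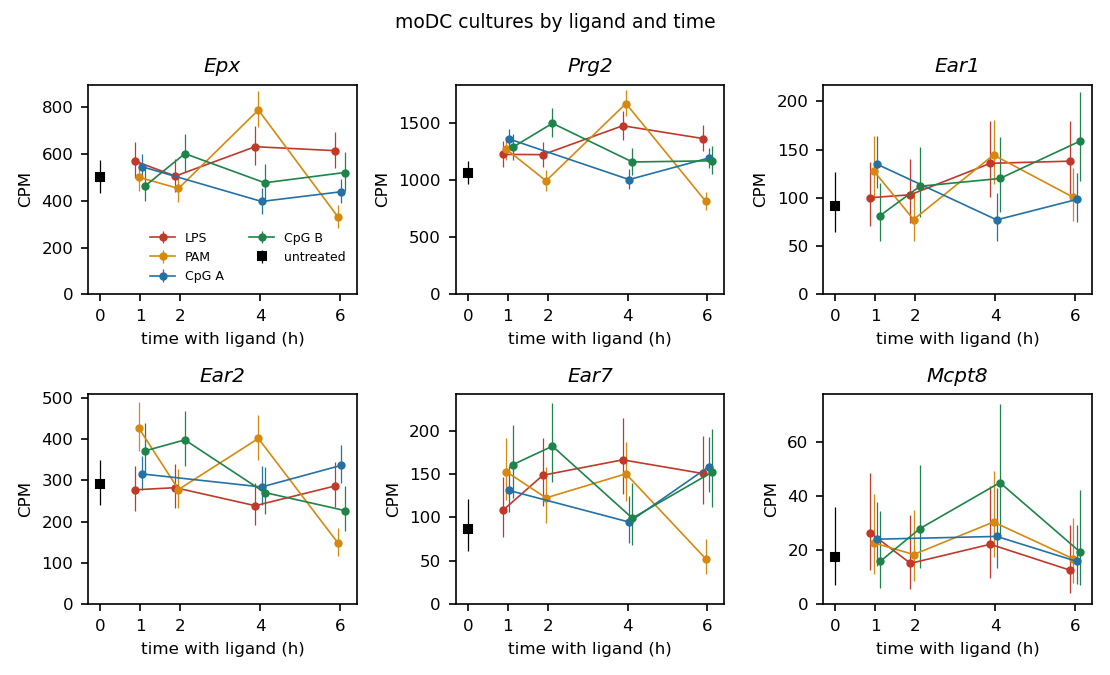
Levels in CPM of 6 genes in single moDC libraries against hours with the ligand, with the untreated library at 0 (black square), 1 line for each ligand and 95% exact Poisson intervals of the count. The PAM libraries at 4 and 6 h lie at the top and the bottom for Epx and Prg2, and the intervals of Mcpt8 overlap throughout.

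Setting the 4 and 6 h libraries of a ligand against the untreated library, edgeR called 0 of 56 member tests over the 8 comparisons. The share of all genes called in these comparisons was 7.73% (LPS), 0.956% (PAM), 0% (CpG A) and 6.38% (CpG B) in moDC. In pDC it was 13.8% (LPS), 3.95% (PAM), 3.03% (CpG A) and 17.2% (CpG B). The members had few reads there, from 0 counts (Ear7) to 8 counts (Ear2) of each tested member in untreated pDC. They passed the joint filter through moDC, so the pDC tests could hardly give a call and say little about a response in pDC. The unadjusted p was under 0.05 in 5 of the 56, and DESeq2 also called 0. Of these 5, 4 were in moDC with LPS: Epx (log2 fold change 0.77 ± 0.35, adjusted p = 0.184), Prg2 (0.87 ± 0.38, adjusted p = 0.161), Ear1 (1.02 ± 0.38, adjusted p = 0.104) and Ear7 (1.31 ± 0.55, adjusted p = 0.155). Scaling by column totals lowered the median of all genes in that comparison by 0.44 and put Epx at 0.32 and Prg2 at 0.42. The fifth was Ear1 in moDC with CpG B. The 4 comparisons of a culture type share 1 untreated library, which was assumed to vary like the other groups.

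Time with a ligand gave no call either. For 4 and 6 h over 1 h, edgeR called 0 of 6 genes in moDC, where 7.14% of all genes were called, and 0 of 6 for the difference between moDC and pDC (3.65% of all genes). No member passed the filter within pDC, where 18.8% of all genes were called, so the difference also rests on few pDC reads. Epx averaged 525 ± 148 CPM at 4 and 6 h (n = 8) and 520 ± 47.3 CPM at 1 h (n = 4) in moDC (SD), and Ear2 averaged 274 ± 75.5 CPM at 4 and 6 h and 348 ± 65.7 CPM at 1 h. Neither difference passed the test (edgeR adjusted p = 0.615 for Epx and 0.705 for Ear2). Between ligands at matched times in moDC, 0 of 6 genes were called for LPS over PAM (1.13% of all genes) and 0 of 5 for CpG B over CpG A (2.25%). Epx was at 581 ± 56.3 CPM with LPS and 518 ± 195 CPM with PAM (SD, n = 4 each). Over the time and ligand comparisons no member had an unadjusted p under 0.05, and DESeq2 called 0 in both families.

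The perturbation libraries ask whether Cebpb or Irf8 bears on these genes, with 1 library a vector and no test. The targets come first. Cebpb had 3 counts (58.1 CPM) in moDC sh-Cebpb and 23 counts (555 CPM) in moDC sh-control, a ratio of 0.105 with an interval of 0.0201 to 0.346. Irf8 had 24 counts (359 CPM) in pDC sh-Irf8 and 32 (805 CPM) in pDC sh-control, a ratio of 0.445 (0.251 to 0.780). Cebpb was not higher in the library labelled pDC OE-Cebpb, at 444 CPM, than in pDC OE-control, at 453 CPM (ratio 0.981, 0.592 to 1.55). Directions drawn from the library labelled pDC OE-Cebpb rest on a label that the target gene did not show, and the labels do not say whether the insert carries the 3′ end that these libraries read.

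Prg2 was the one member with enough reads to follow. It had 5 counts (96.8 CPM) in moDC sh-Cebpb and 21 counts (507 CPM) in moDC sh-control, a ratio of 0.191 with an interval of 0.0563 to 0.521. Of 2546 genes with at least 100 CPM in either of these libraries, 19.1% were also at least 2-fold lower, so a drop of that kind was common. Summed neutrophil granule genes were lower too, at 9840 CPM in moDC sh-Cebpb and 27886 CPM in moDC sh-control, and their part in the Prg2 value was not tested. In pDC sh-Irf8 Prg2 had 8 counts (120 CPM), and in pDC sh-control 2 counts (50.3 CPM), a ratio of 2.38 with an interval of 0.474 to 23.0 that holds 1. The neutrophil list was at 17874 CPM in pDC sh-Irf8 and 3146 CPM in pDC sh-control, and its part was again not tested.

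In the library labelled pDC OE-Cebpb Prg2 had 9 counts (182 CPM), and in pDC OE-control 56 counts (213 CPM), a ratio of 0.853 (0.371 to 1.74). The neutrophil list was higher in the library labelled pDC OE-Cebpb, at 31555 CPM, than in pDC OE-control, at 19209 CPM, and its part was not tested. Epx, Cpa3 and Mcpt8 had 0 counts in the library labelled pDC OE-Cebpb and 7, 8 and 7 counts in pDC OE-control, but the shallower library allows up to 60.5 CPM at a count of 0, and the upper bounds of the ratios were 3.68, 3.11 and 3.68. Elsewhere Epx had 1 count in moDC sh-Cebpb and 2 in moDC sh-control, at or under the floor of 3 counts in both. A culture difference of Prg2 in the same direction was seen in libraries that the stimulation table does not hold. Prg2 had 21 counts in moDC sh-control and 2 in pDC sh-control, a ratio of 10.1 with an interval of 2.46 to 88.6. Among genes at 100 CPM in either library 17% were at least 2-fold higher in moDC sh-control. The size of the difference depends on the pDC control: Prg2 was at 507 CPM in moDC sh-control, 50.3 CPM in pDC sh-control and 213 CPM in the deeper pDC OE-control. These pDC controls also differed in Siglech, at 352 CPM in pDC sh-control and 64.7 CPM in pDC OE-control. Their neutrophil lists were at 3146 CPM and 19209 CPM. The part of these differences in the Prg2 values was not tested.

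**Figure D3:**
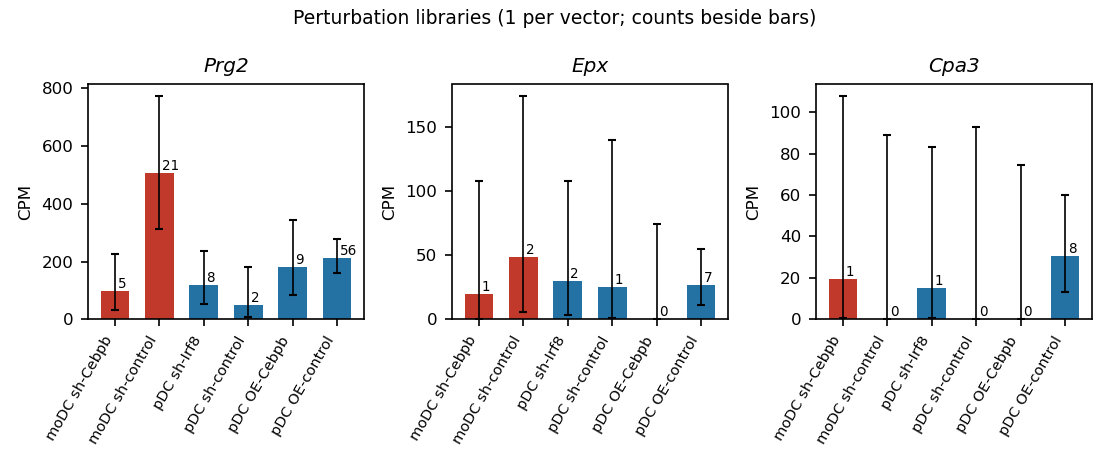
Levels in CPM of Prg2, Epx and Cpa3 in the 6 perturbation libraries, moDC in red and pDC in blue, each vector left of its control, with 95% exact Poisson intervals and the count beside each bar. Prg2 in moDC sh-Cebpb and moDC sh-control is the one vector pair whose ratio interval leaves out 1.

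The sorted populations show which of these transcripts were counted in freshly isolated cells. Epx had 0 counts in all 9, which allows up to 0.583 to 3.43 CPM. Ear2 was high in 1 population: it had 350 CPM (interval 323 to 378) in Ly6c- monocytes, then 70.9 CPM in Ly6c+ monocytes, 30.9 in DN DC, 9.38 in CD8+ DC, 3.79 in pDC, 3.19 in CDP, 1.29 in MP, 1.12 in preDC and 0.194 in MDP. Each of the first 4 steps in this order was larger than counting error, with ratios of 4.93 (3.79 to 6.51), 2.29 (1.54 to 3.45), 3.30 (1.72 to 6.85) and 2.47 (1.03 to 5.87), and no later neighbours differed beyond it. Ly6c- monocytes are the patrolling monocytes of blood and marrow, and the population carried 542 CPM of Cx3cr1, their chemokine receptor, and 3443 CPM of Csf1r, the receptor for macrophage growth factor.

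Ear1 had the same leading order, with 37.0 CPM in Ly6c- monocytes, 8.01 in Ly6c+ monocytes and 3.44 in DN DC. In 3 of the 5 populations where the estimated counts of Ear1 and Ear2 both had a fraction, the fraction was the same, so part of the reads were divided between them. Ear7 had 3 counts in Ly6c- monocytes and 0 elsewhere. Epx and Prg2 had 0 counts in Ly6c- monocytes, which allows up to 1.68 CPM, beside 388 CPM summed over Ear1, Ear2 and Ear7. In the moDC cultures all 5 eosinophil genes had counts in each library. Values of the 2 tables were normalized separately and their levels are not compared.

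Mcpt8, the basophil protease, was highest in the populations labelled MP and MDP. It had 36.5 CPM in MP and 27.4 CPM in MDP, a ratio of 1.33 with an interval of 1.05 to 1.69, then 10.6 in Ly6c- monocytes, 6.69 in CDP and 1.14 in Ly6c+ monocytes. It had 0 counts in pDC, preDC, DN DC and CD8+ DC. The step between MDP and Ly6c- monocytes was 2.57 (1.59 to 4.40), and later neighbours did not differ beyond counting error. Gata2, named after its values were seen, was at 72.1 CPM in MP and 18.8 CPM in MDP. The neutrophil granule list summed to 6669 CPM in MP and 9405 CPM in MDP, and its part in the Mcpt8 values was not tested. Prg2 had 13 counts in CD8+ DC, or 10.2 CPM (5.41 to 17.4), 2 in pDC, 1 in MDP and 0 in the other 6.

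**Figure D4:**
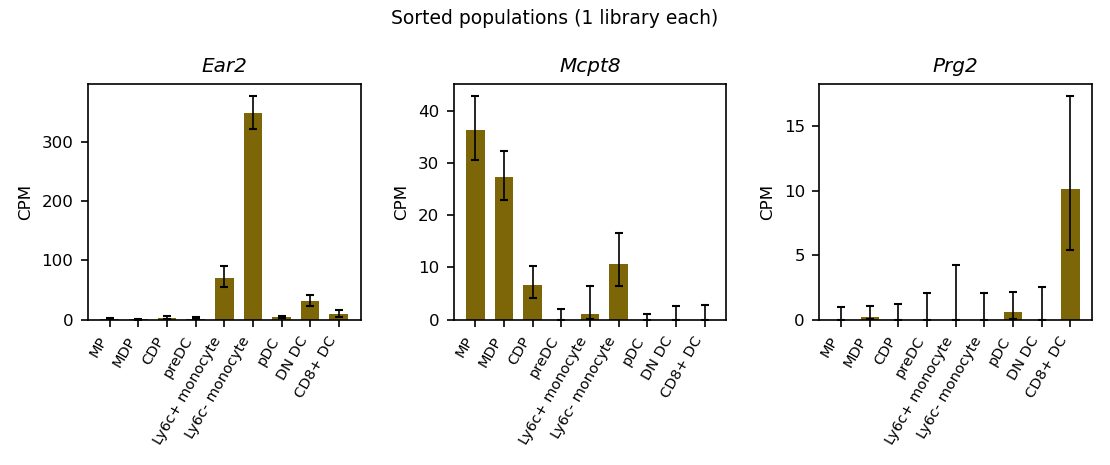
Levels in CPM of Ear2, Mcpt8 and Prg2 in 9 sorted populations, 1 library each, with 95% exact Poisson intervals of the count. Ear2 peaks in Ly6c- monocytes at 350 CPM, Mcpt8 in MP at 36.5 CPM and Prg2 in CD8+ DC at 10.2 CPM.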

How the data were processed

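The authors deposited read counts per gene symbol for the stimulation experiment, and estimated counts for the perturbation (10.2% not whole) and sorted tables (15.8% not whole). Estimated counts were rounded first. The submitters' processing notes name TopHat and the build mm9, and the counting tool is not given in the sources used here. Columns were matched to samples by name, and 1 column that matched none was left out, as was a row without a gene name (0.187% to 0.938% of stimulation counts). Tests used edgeR 4.0.16 (R 4.3.3) quasi-likelihood fits scaled by TMM, two-sided, on every gene that reached 20 CPM in 4 or more of the fitted libraries, adjusted by Benjamini-Hochberg over all genes of the fit. Calls required a change of 2-fold or more and an adjusted p under 0.05. Fits were tested on simulated data. For the comparisons of late with untreated libraries no minimum share of recovered changes was required. DESeq2 1.42.0, column totals, no filter, no block and left-out libraries were alternatives. Single libraries were compared by ratios of CPM and exact intervals (scipy 1.17.1). Intervals cover counting error only, as no molecular identifiers are described. The members and gene lists were chosen with earlier results of these data known. All members are named, and from each other list the up to 3 called genes with the largest fold. The conventional dendritic cell list is the exception and is given as counts only. For likeness the 5 genes with the highest Pearson r are named. Promoters came from RefSeq's table, and the counts' build differs, so no coordinates of the count tables are given.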

Additional observations from a re-analysis of the deposited data

How the results depend on the processing

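The 7 calls of moDC over pDC were 7 with DESeq2, without the filter and without the condition block, 6 with column totals, 6 with the late libraries alone and 5 with untreated, 1 and 2 h libraries alone. Leaving out 1 condition at a time gave 5 to 7. Mcpt8 slipped under the 2-fold threshold with column totals (0.81), in early libraries (0.88) and without LPS 4 h, PAM 4 h or CpG B 4 h (0.97 each). Cpa3 missed the filter, and so had no test, in early or late libraries alone and without LPS 6 h, PAM 2 h, CpG B 1 h or CpG B 4 h. Column totals moved the median log2 fold change of all genes by -0.25 in that comparison. The counts of 0 for late, time and ligand comparisons were 0 under every alternative run. The log2 ratio of Prg2 in moDC sh-Cebpb over moDC sh-control was -2.27, and -2.38 with 1 CPM added or -2.19 with TMM. Ear2 in Ly6c- monocytes was at 409 CPM with TMM, against 350 CPM. The culture test pairs moDC and pDC libraries by condition, as blocks. Beyond that, no paired analysis was possible because the labels give no replicate numbers and each condition is 1 library. The shallow perturbation libraries limit every member other than Prg2.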
